A study of Mus musculus with 27 samples.

Results

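The genes described here are 10 genes that make, bind or break down hyaluronan in the mouse heart. They were chosen by symbol, and all 10 were found among the 22855 genes of both count tables. Itih2, Itih3, Itih4 and Itih5 encode heavy chains of inter-alpha-trypsin inhibitor. Has1 and Has2 encode hyaluronan synthases, and Hyal1 and Hyal2 encode hyaluronidases. Cd44 encodes a hyaluronan receptor and Vcan encodes versican. The choice of the set used the appearance of Itih2 in fibroblasts after birth, so that change is given as a description, with no test.

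RNA-Seq counts were given for 12 samples of PDGFRα+ fibroblasts of the heart and for 15 samples of whole heart, all from C57BL/6 mice. No treatment or altered allele is named in the labels. The 5 ages ran from postnatal day 1 (P1) over 4 weeks and 14 weeks to 1 year and then 1.5 years. Each age had 3 samples of whole heart, called hearts below. Fibroblast samples numbered 3 at P1 and 4 weeks and 2 from 14 weeks on, the latter fewer than the methods of the study describe. The design text of the series mentions myocardial infarction, which no label does, and the samples were grouped by the labels. Fibroblasts were sorted by flow cytometry after enzymatic digestion of ventricles, whereas whole hearts were not digested, so tissue and isolation cannot be told apart. Total counts were 54.6 to 76.8 M per fibroblast sample and 46.1 to 68.0 M per heart. All 10 genes passed the filter on low counts in both tissues. Pdgfra itself was at 784 to 1367 CPM in every fibroblast sample. The summed level of 6 cardiomyocyte markers in fibroblasts was 635 to 738 CPM at P1 and 10.5 to 139 CPM later. In hearts it was at least 29923 CPM. Other lists were less far apart: 9 endothelial markers summed to 367 to 2680 CPM in fibroblasts and 1037 to 1753 CPM in hearts. The sum of 6 mural markers was 273 to 788 CPM in fibroblasts and 543 to 1468 CPM in hearts. The sex of the animals is not given, and Xist was at most 0.570 CPM at 14 weeks and 1 year and at least 6.48 CPM at the other ages, whereas Ddx3y was at most 0.397 CPM at 1.5 years and at least 1.64 CPM at the other ages. Sex-linked expression thus moved with age in both tissues. In the contrasts of 14 weeks with 4 weeks, and of 1.5 years with 14 weeks or P1, it cannot be told apart from age. Every sample of P1 and 4 weeks, hearts included, had both Xist and Ddx3y at or above these lower limits. The labels do not tie a sample to an animal, so whether such a sample held 1 animal or several is not known. The share of each sex in it is not given either, so sex can also differ between P1 and 4 weeks. The part of sex in the results was not tested.

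Hyaluronan is a long, unbranched sugar polymer that synthases in the plasma membrane extrude into the extracellular space. Proteins give it structure: versican binds it with its N-terminal end, and the heavy chains of inter-alpha-trypsin inhibitor become covalently joined to it in a transfer carried out by the protein TSG-6, which Tnfaip6 encodes. In the heart, hyaluronan and versican are known for their part in forming the valve cushions before birth, and the inter-alpha-trypsin heavy chains are best known as liver products carried in plasma. Levels are given below as CPM, a gene's counts per 1000000 counts of the sample after TMM scaling within a tissue. The test between ages was edgeR's quasi-likelihood F test, and a gene passed it where its p, adjusted after Benjamini and Hochberg over all genes tested in that tissue, was under 0.05.

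Itih2 encodes heavy chain 2, which in plasma is joined to the light chain bikunin. It went from the limit of detection at P1 to clear expression at every later age. The raw counts in the 3 P1 fibroblast samples were 0, 0 and 1. At 4 weeks Itih2 was at 13.0, 14.8 and 17.0 CPM. All 3 samples of 4 weeks lay far above those of P1, and the lowest of them had 971 counts. The 14-week samples were at 22.7 and 19.4 CPM, the 1-year samples at 24.5 and 21.2 CPM, and the 1.5-year samples at 40.8 and 32.7 CPM. The means followed the order of age, and of the neighbouring ages only 14 weeks and 1 year overlapped. Against a floor of 3 counts per P1 library, Itih2 was at least 359-fold higher at 4 weeks and at least 885-fold higher at 1.5 years, limits that cover counting error only. The later steps, which did not enter the choice, did not pass the test: the log2 fold change was 0.49 (SE 0.29, adjusted p = 0.450) from 4 to 14 weeks, 0.12 (SE 0.32, adjusted p = 0.986) from 14 weeks to 1 year, and 0.81 (SE 0.33, adjusted p = 0.280) from 14 weeks to 1.5 years. Of 6 hepatocyte markers, 2 have rows in the tables, Apoa1 and Apoa2, and their summed level was at most 2.45 CPM in any fibroblast sample.

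**Figure D1:**
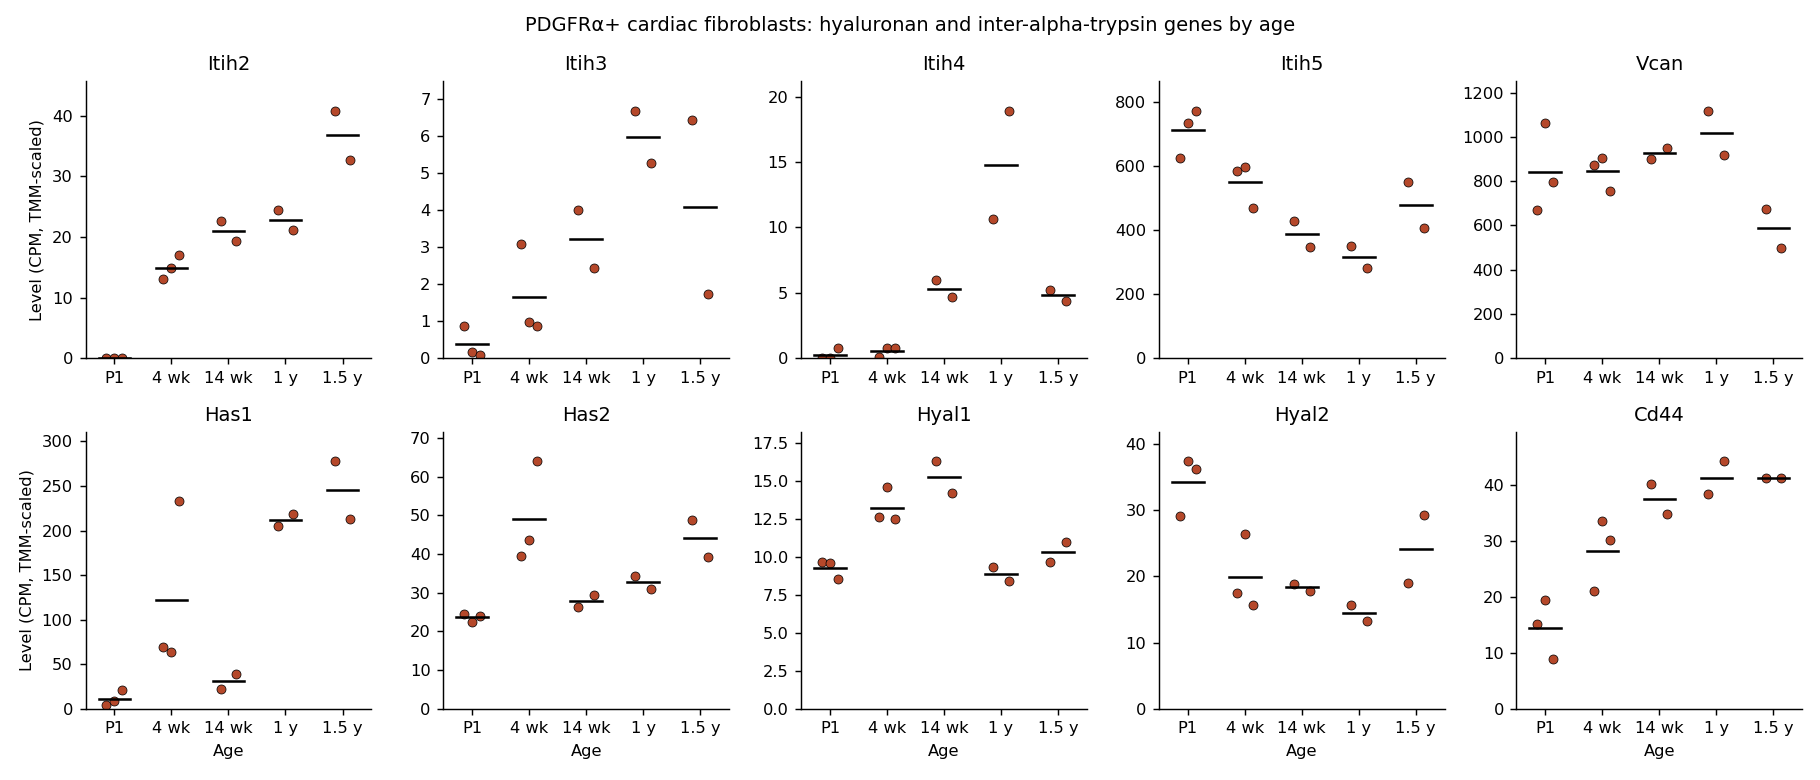
Levels of the 10 genes in PDGFRα+ cardiac fibroblasts. Each panel plots CPM against age, each point is 1 sample and each bar the mean of an age. Itih2 is near 0 in all 3 P1 samples and at 13.0 CPM or more in all later ones, while Itih5 and Hyal2 have their highest means at P1.

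Itih5, which encodes a heavy chain made in many tissues outside the liver, lies next to Itih2 on chromosome 2. On GRCm38, Itih2 spans chr2:10094593-10131396 on the minus strand and Itih5 spans chr2:10153571-10256529 on the plus strand, with 22174 bases between them and no shared exon. In fibroblasts Itih2 had its lowest mean at P1 and Itih5 its highest. Itih5 was at 625, 735 and 772 CPM at P1, at 584, 596 and 468 CPM at 4 weeks, at 428 and 346 CPM at 14 weeks, at 351 and 282 CPM at 1 year, and at 551 and 408 CPM at 1.5 years. Every P1 sample was above every later one. Among the 5 ages Itih5 differed (adjusted p = 0.00295), as did 19.9% of the genes tested. From P1 to 4 weeks its log2 fold change was -0.37 (SE 0.16, adjusted p = 0.147). From P1 to 1.5 years it fell by 0.57 on the log2 scale (SE 0.18, adjusted p = 0.0498), a call at the edge of the threshold. It was lost with an offset for transcript length and GC content (adjusted p = 0.0798) and on leaving out any 1 of 9 of the 12 samples, with adjusted p between 0.0548 and 0.372: P1 replicates 2 and 3, 4-week replicates 1 and 2, either 14-week or either 1-year sample, and 1.5-year replicate 5.

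The 250 bases before the RefSeq start of each of these neighbours on GRCm38.p6 are shown because the genes lie side by side and, at P1, 1 had its lowest and the other its highest level. Capitals mark matches, on either strand, to 4 motifs that were searched: the AP-1 site TGACTCA, the cyclic AMP response element TGACGTCA, the TATA box TATAAA and the GC box GGGCGG. The Itih2 window is chr2:10130684-10130933 and the Itih5 window chr2:10153293-10153542.
Itih2, minus strand: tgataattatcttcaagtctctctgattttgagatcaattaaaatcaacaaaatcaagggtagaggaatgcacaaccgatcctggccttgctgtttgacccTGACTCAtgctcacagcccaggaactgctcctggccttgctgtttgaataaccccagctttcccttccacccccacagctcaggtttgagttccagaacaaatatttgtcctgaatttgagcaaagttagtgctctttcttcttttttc
Itih5, plus strand: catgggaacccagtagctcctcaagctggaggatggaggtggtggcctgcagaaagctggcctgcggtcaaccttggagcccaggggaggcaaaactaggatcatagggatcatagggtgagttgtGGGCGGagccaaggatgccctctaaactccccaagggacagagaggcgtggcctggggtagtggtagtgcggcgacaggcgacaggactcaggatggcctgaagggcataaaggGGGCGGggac
The Itih2 window held 1 AP-1 match, whose first base is at -149, and none to the other motifs. It was 43.2% G or C with 1 CpG, where the median of 32851 RefSeq windows of this kind was 52.4% with 6 CpG. The Itih5 window was 61.2% G or C with 7 CpG and held 2 GC boxes, at -124 and -10. Of all windows, 4.46% held the AP-1 letters and 32.7% the GC box. A match to letters is a description of the sequence and not evidence of a bound factor. Windows were found for 9 of the 10 genes, all but Has2.

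Itih3 and Itih4, which encode further heavy chains and lie 6218 bases apart on chromosome 14 (Itih3 at chr14:30908572-30923760 on the minus strand, Itih4 at chr14:30886476-30902353 on the plus strand), were among the 3 lowest of the 10 genes per length in fibroblasts at every age. Itih3 encodes a heavy chain found with bikunin in plasma, whereas the Itih4 product is not joined to bikunin. Itih3 was at 0.0881 to 0.858 CPM at P1, 0.880 to 3.08 CPM at 4 weeks, 2.44 to 4.00 CPM at 14 weeks, 5.28 to 6.69 CPM at 1 year and 1.73 to 6.44 CPM at 1.5 years. Its lowest mean was at P1, as for Itih2, but the samples of 1.5 years spanned most of the later range. Itih4 was at 0 to 0.749 CPM at P1, 0.0536 to 0.806 CPM at 4 weeks, 4.67 to 5.97 CPM at 14 weeks, 10.6 to 18.9 CPM at 1 year and 4.35 to 5.25 CPM at 1.5 years. Here the samples of 4 weeks still overlapped those of P1 and every later sample was higher. Neither gene passed the test among the 5 ages (adjusted p = 0.150 for Itih3 and 0.0840 for Itih4), and both passed it with DESeq2, which called 29.2% of all genes. Itih1 and Ambp, which encodes bikunin, were scarcely counted: Itih1 was at most 0.952 CPM and Ambp at most 0.549 CPM in any fibroblast sample, and all 15 hearts had 0 counts for Itih1.

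Within a sample, levels can be set beside each other only per length, here as CPM per kb of merged exons in GENCODE M21. On that scale Itih5 was the highest of the 10 genes at P1 with 90.0 ± 9.68 (SD, n = 3) CPM per kb, followed by Vcan with 58.3 ± 14.0 CPM per kb. Both stayed among the 3 highest at every age. Itih2 was the lowest at P1 and had risen to the 4th place at 1.5 years, with 11.1 ± 1.73 (SD, n = 2) CPM per kb. Itih5 made up 99.7% to 99.9% of the summed level per kb of the 4 Itih genes in the P1 samples, 91.4% to 93.9% at 4 weeks, and 73.4% to 85.0% in the older samples. Itih2 made up at most 0.00452% of that sum at P1, 4.99% to 7.91% at 4 weeks, and 14.5% to 15.6% at 1.5 years.

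**Figure D2:**
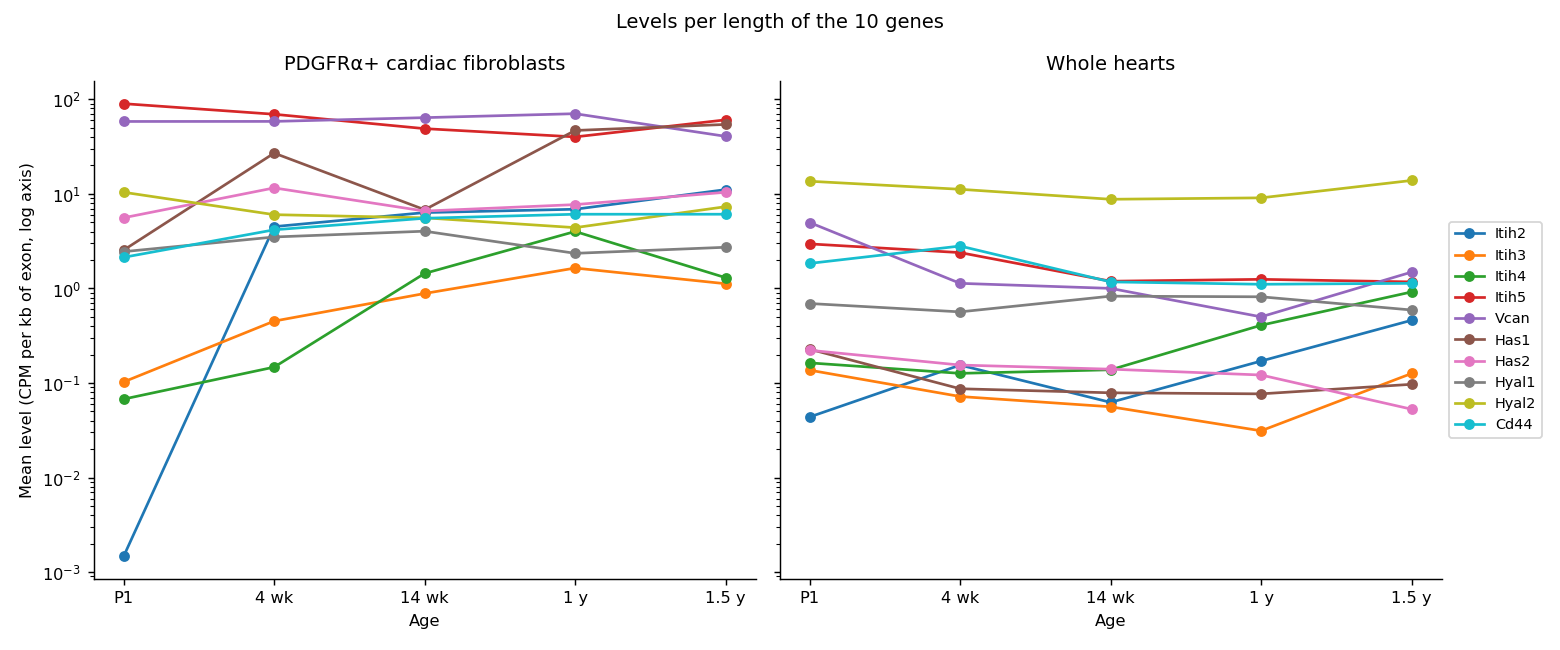
Mean level of each of the 10 genes per kb of merged exons, on a log axis, against age in fibroblasts (left) and whole hearts (right). Itih5 and Vcan stay near the top in fibroblasts, Itih2 is the lowest in fibroblasts at P1, and Hyal2 is the highest gene in hearts at each age.

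Has1 and Has2 were higher in fibroblasts at 4 weeks than at P1. Both encode synthases that join glucuronic acid and N-acetylglucosamine from their UDP-sugars, and Has2 is the synthase needed for cushion formation in the embryo. Has1 was at 4.60, 8.68 and 21.3 CPM at P1, at 68.9, 64.2 and 233 CPM at 4 weeks, at 22.7 and 38.7 CPM at 14 weeks, at 205 and 219 CPM at 1 year, and at 278 and 213 CPM at 1.5 years. P1 was the lowest age with no overlap, the 14-week samples were the next lowest, and 4-week replicate 3 stood apart from the other 4-week samples. Has1 rose by 3.41 on the log2 scale from P1 to 4 weeks (SE 0.59, adjusted p = 0.00150) and by 4.41 from P1 to 1.5 years (SE 0.63, adjusted p = 0.000341). Both calls held on leaving out each sample in turn, but the size of the early rise rested on single samples: it was 2.53 without 4-week replicate 3 and 4.20 without P1 replicate 3. The rise to 1.5 years was likewise 5.21 without P1 replicate 3.

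Has1 rose again late, by 3.00 on the log2 scale from 14 weeks to 1.5 years (SE 0.70, adjusted p = 0.0430). Leaving out any 1 of the samples of 14 weeks, 1 year or 1.5 years ended this call, with adjusted p between 0.0532 and 0.355. The preceding step, from 4 to 14 weeks, was -1.99 on the log2 scale (SE 0.64, adjusted p = 0.128), and that to 1 year was 2.78 (SE 0.70, adjusted p = 0.0704). The samples of these ages did not overlap, yet neither step passed the test.

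Has2 was steadier. It was at 24.6, 22.4 and 24.1 CPM at P1, at 39.4, 43.7 and 64.0 CPM at 4 weeks, at 26.4 and 29.4 CPM at 14 weeks, at 34.4 and 30.9 CPM at 1 year, and at 48.9 and 39.2 CPM at 1.5 years. The 4-week and 1.5-year samples were the highest and overlapped each other. It rose by 1.05 on the log2 scale from P1 to 4 weeks (SE 0.20, adjusted p = 0.00276) and by 0.89 from P1 to 1.5 years (SE 0.21, adjusted p = 0.0118), the latter not without 1.5-year replicate 4 (adjusted p = 0.125). The log2 fold change from 4 to 14 weeks was -0.81 (SE 0.22, adjusted p = 0.0669). Per length, Has1 was at 0.175 to 0.827 times the level of Has2 in the P1 samples, at 1.38 to 3.41 times at 4 weeks, at 0.807 to 1.24 times at 14 weeks, at 5.57 to 6.64 times at 1 year and at 5.08 to 5.32 times at 1.5 years. Has2 was thus the more abundant synthase in each P1 sample and Has1 in each sample of 4 weeks, 1 year and 1.5 years. Has2 shares 182 of its exon bases with the antisense gene Has2os, and the counting column for strand is not given in the sources used here.

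The 250 bases before the start of Has1, at chr17:17855189-17855438, are shown because Has1 had the largest called change of the 9 members tested in fibroblasts and because they hold a full cyclic AMP response element, TGACGTCA, in capitals at -83.
Has1, minus strand: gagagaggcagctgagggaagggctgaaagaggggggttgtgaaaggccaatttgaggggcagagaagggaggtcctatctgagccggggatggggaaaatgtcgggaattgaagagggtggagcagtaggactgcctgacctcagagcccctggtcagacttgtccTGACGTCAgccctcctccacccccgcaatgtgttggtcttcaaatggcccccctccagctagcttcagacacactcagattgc
These letters were found in 1.55% of all windows and in no other member's window, but Has2 had no window to search.

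Genes that respond within minutes to digestion and handling were high in the sorted fibroblasts and moved with age. The summed level of 10 of them (Fos, Jun, Junb, Fosb, Egr1, Atf3, Ier2, Hspa1a, Hspa1b and Dnajb1) was 11843 to 16489 CPM at P1, 26879 to 29267 CPM at 4 weeks, 26669 to 29557 CPM at 14 weeks, 32658 to 35130 CPM at 1 year and 37854 to 40202 CPM at 1.5 years. In hearts it was 149 to 550 CPM. The sum was lowest at P1 and highest at 1.5 years, as Has1 was, but at 14 weeks, where Has1 was low, it lay on both sides of its 4-week range. Atf3 alone was at 188 to 260 CPM at P1, 643 to 1196 CPM at 4 weeks, 463 to 472 CPM at 14 weeks, 652 to 663 CPM at 1 year and 1156 to 1297 CPM at 1.5 years, with 4-week replicate 3 at 1196 CPM. The summed level of 9 endothelial markers was 2680 CPM in 4-week replicate 3 against 739 and 794 CPM in the other 4-week samples, and 1744 and 2122 CPM at 14 weeks. Has1 was high in the former and low in the latter. Mesothelial cells also make hyaluronan, and the summed level of 6 mesothelial markers was at most 31.3 CPM in any fibroblast sample. Of these, Upk3b, Upk1b, Msln and Lrrn4 were at 3 counts or fewer in all 4-week samples. Wt1, of the same list, was at 2.87, 5.12 and 21.2 CPM in 4-week replicates 1, 2 and 3. At P1, where Has1 was lowest, Wt1 was at 10.2 to 25.0 CPM. The part of handling and of other cells in these results was not tested.

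**Figure D3:**
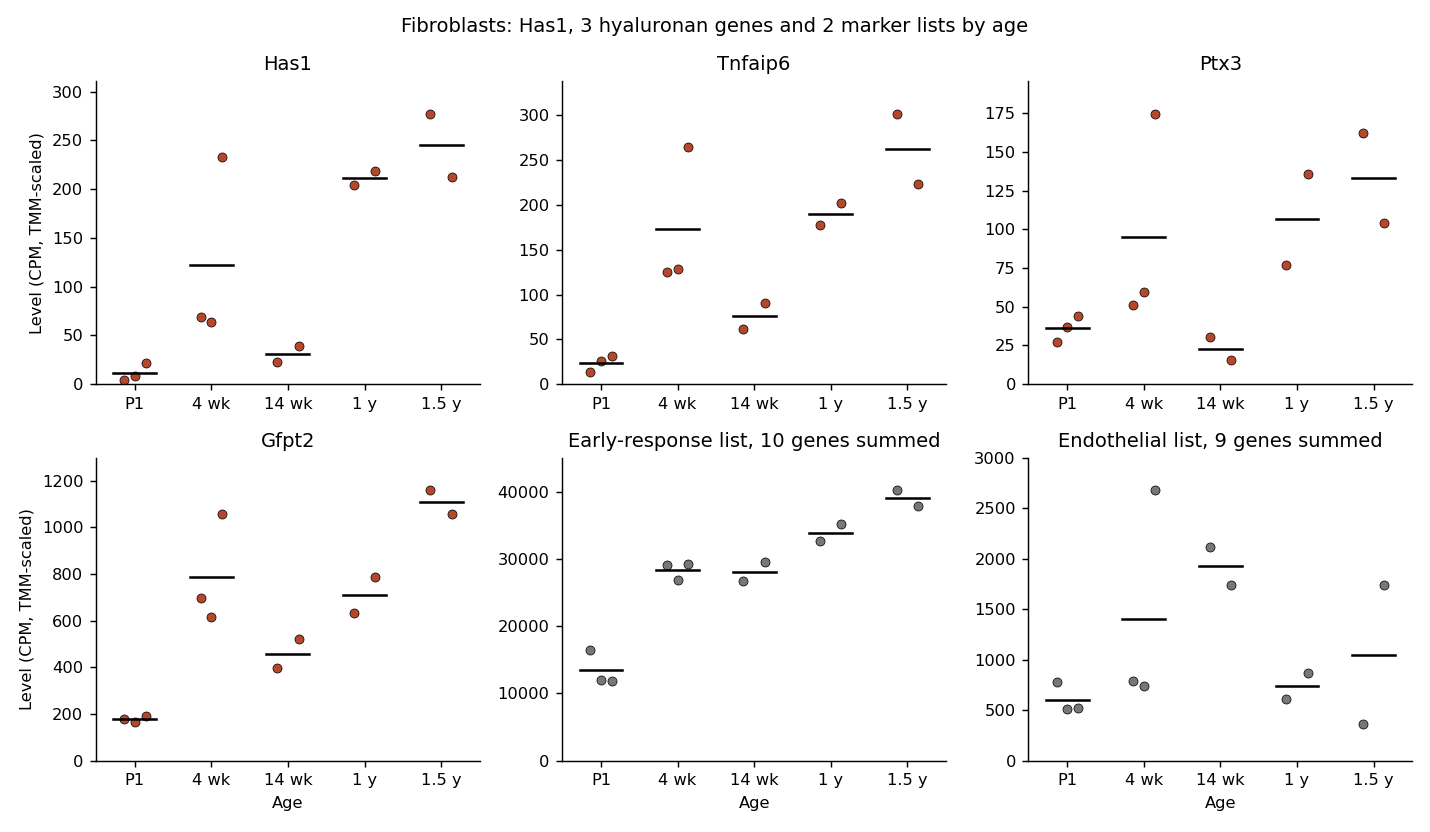
Levels in fibroblasts of Has1, Tnfaip6, Ptx3 and Gfpt2 and the summed levels of 10 early-response genes and 9 endothelial markers, in CPM against age (points, samples; bars, means). The 4 genes are lower at 14 weeks than at 4 weeks and 1 year, and the early-response sum is lowest at P1, at 16489 CPM or less.

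Hyal2, which encodes an enzyme anchored at the cell surface that cuts long hyaluronan, was at 29.2, 37.4 and 36.2 CPM at P1 and at 17.5, 26.4 and 15.7 CPM at 4 weeks. The ranges did not overlap, and Hyal2 fell by 0.79 on the log2 scale (SE 0.25, adjusted p = 0.0493). This call was narrow: it was lost with no filter on low counts (adjusted p = 0.0542), and without 4-week replicates 1 or 3, P1 replicates 2 or 3, either 14-week sample or either 1-year sample, with adjusted p between 0.0714 and 0.143. Later levels were 17.9 to 18.9 CPM at 14 weeks, 13.3 to 15.6 CPM at 1 year and 19.0 to 29.2 CPM at 1.5 years, and the last overlapped P1. Hyal1, which encodes the lysosomal enzyme, was at 8.42 to 16.3 CPM in all samples and did not pass the test among the 5 ages (adjusted p = 0.210). In GENCODE M21, Hyal1 shares 1920 of its 3777 exon bases with Naa80 and 159 with Hyal3 on the same strand, and STAR drops reads that overlap more than 1 gene of its annotation, which is not named in the sources used here, so the level of Hyal1 is uncertain.

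Cd44, the main cell surface receptor for hyaluronan, rose with age in fibroblasts. It was at 15.1, 19.5 and 8.87 CPM at P1, at 21.1, 33.6 and 30.1 CPM at 4 weeks, at 40.1 and 34.8 CPM at 14 weeks, at 38.4 and 44.2 CPM at 1 year and at 41.3 CPM in both samples of 1.5 years. No P1 sample reached any later one, and from 14 weeks on the levels were close together. The log2 rise was 0.97 from P1 to 4 weeks (SE 0.27, adjusted p = 0.0263) and 1.51 from P1 to 1.5 years (SE 0.29, adjusted p = 0.00286). The early call was lost without P1 replicates 1 or 3 or 4-week replicates 2 or 3, with adjusted p between 0.0526 and 0.0934, and with the length and GC offset (adjusted p = 0.0636). Leukocytes also carry Cd44, and the summed level of 7 leukocyte markers was 68.7 to 120 CPM at P1, 124 to 197 CPM at 4 weeks and 12.4 to 47.0 CPM from 14 weeks on. Over the step on which the early call rests the markers were higher at 4 weeks, as Cd44 was, with no overlap, and from 14 weeks on they were lower than at P1. Their part in the rise of Cd44 was not tested.

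Vcan encodes versican, a large chondroitin sulfate proteoglycan that is laid down with hyaluronan in growing and injured tissue. Its fibroblast level differed between P1 and 4 weeks by less than the spread between samples. It was at 670, 1066 and 795 CPM at P1, at 873, 905 and 756 CPM at 4 weeks, at 903 and 949 CPM at 14 weeks, at 1119 and 920 CPM at 1 year, and at 675 and 500 CPM at 1.5 years. The log2 fold change from P1 to 4 weeks was 0.00 (SE 0.17, adjusted p = 1.0). The 1.5-year samples were below those of 14 weeks with no overlap, and their log2 fold change, -0.66 (SE 0.21, adjusted p = 0.154), passed the test with DESeq2, which called 6.80% of all genes at that step, and with library size as the only scaling.

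Counted over the 9 members other than Itih2, 4 passed the test from P1 to 4 weeks in fibroblasts (Has1, Has2 and Cd44 higher, Hyal2 lower), where 15.5% of 18759 genes did, and 4 passed from P1 to 1.5 years (Has1, Has2 and Cd44 higher, Itih5 lower), where 16.3% did. These contrasts entered the choice of the set, so the counts are given as a description. The median log2 fold change of the 9 was 0.97 from P1 to 4 weeks, and that of all genes was 0.00. Among the 5 ages, 5 of the 9 passed, where 19.9% of all genes did. From 4 to 14 weeks 0 of the 10 passed by edgeR against 3.87% of all genes, 3 had an unadjusted p under 0.05 and 2 passed by DESeq2, which called 8.17% of all genes. From 14 weeks to 1 year 0 of 10 passed against 1.78% of all genes, with 2 at an unadjusted p under 0.05 and 1, Has1, by DESeq2, which called 5.38%. Over the longer span from 14 weeks to 1.5 years, 1 of 10 passed, Has1, against 2.72% of all genes.

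The same 10 genes were followed in whole hearts. Here fewer cells that express a gene and less RNA per cell cannot be told apart. Vcan fell most clearly: it was at 60.3, 74.0 and 81.9 CPM at P1, at 20.3, 8.97 and 19.9 CPM at 4 weeks, at 12.5 to 16.0 CPM at 14 weeks, at 5.07, 9.06 and 7.60 CPM at 1 year and at 32.8, 13.6 and 18.3 CPM at 1.5 years. Every P1 heart was above every older one. The log2 fold change from P1 to 4 weeks was -2.14 (SE 0.34, adjusted p = 0.000286), and from P1 to 1.5 years it was -1.74 (SE 0.34, adjusted p = 0.000883). The latter was -0.61 (adjusted p = 0.0497) with an offset for transcript length and GC content. Library size as the only scaling moved the median of all heart genes by -0.51 from P1 to 4 weeks, and Vcan was then at -2.65. Of the 10 members 1 passed from P1 to 4 weeks, against 18.2% of 17995 genes.

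Cd44 in hearts was at 9.78, 12.3 and 15.3 CPM at P1, at 22.2, 18.3 and 16.7 CPM at 4 weeks, and at 5.71 to 10.1 CPM in all older hearts. The 4-week hearts were thus the highest, with no overlap with any other age. From 4 to 14 weeks Cd44 fell by 1.26 on the log2 scale (SE 0.28, adjusted p = 0.0342), the only member of the 10 to pass at that step, where 1.61% of genes did. The call was lost without any of the 4-week or 14-week hearts, 1-year replicate 1 or P1 replicate 2, with adjusted p between 0.0513 and 0.181. The summed level of 7 leukocyte markers in hearts was 22.7 to 27.2 CPM at P1, 102 to 125 CPM at 4 weeks, 74.8 to 88.7 CPM at 14 weeks and 108 to 119 CPM at the later ages. It was lower at 14 weeks than at 4 weeks, as Cd44 was, and higher again later, and its part was not tested.

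Hyal2 was the most abundant of the 10 genes per length in hearts at every age. It was at 45.2, 51.1 and 38.1 CPM at P1, at 31.1, 47.7 and 31.7 CPM at 4 weeks, at 31.3, 22.6 and 32.8 CPM at 14 weeks, at 33.3, 25.7 and 30.8 CPM at 1 year, and at 41.0, 43.1 and 52.9 CPM at 1.5 years. From 14 weeks to 1.5 years it rose by 0.66 on the log2 scale (SE 0.21, adjusted p = 0.0482), and 12.8% of all genes changed at that step. The call was lost on leaving out 9 of the 15 hearts (any of 14 weeks or 1 year, 1.5-year replicates 2 or 3, or 4-week replicate 3), with adjusted p between 0.0549 and 0.197, and it was lost with the length and GC offset (adjusted p = 0.0503). Of the 10 members Hyal2 alone passed at this step. Vcan, with a log2 difference of 0.57 (SE 0.33, adjusted p = 0.276), was at 1.58 (adjusted p = 0.00171) with that offset.

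Itih5 in hearts was at 11.6, 29.8 and 28.8 CPM at P1, at 20.2, 9.84 and 26.7 CPM at 4 weeks, and at 5.20 to 12.4 CPM from 14 weeks on. From P1 to 1.5 years its log2 fold change was -1.34 (SE 0.41, adjusted p = 0.0196), although P1 replicate 1 lay within the range of 1.5 years. The call was lost without P1 replicates 2 or 3 or 1.5-year replicate 2 (adjusted p between 0.0842 and 0.101), and the value was -0.32 (adjusted p = 0.594) with the length and GC offset. Of the 10 members 2 passed from P1 to 1.5 years, Itih5 and Vcan, against 31.8% of all genes, and 4 passed among the 5 ages (those 2, Cd44 and Hyal2) against 34.3%. From 14 weeks to 1 year 0 of 10 passed by edgeR and by DESeq2, with 1 at an unadjusted p under 0.05, against 0.972% of all genes by edgeR and 4.76% by DESeq2.

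Itih2, Itih3, Itih4, Has1, Has2 and Hyal1 were low and uneven in hearts. Has2 had 1, 81 and 184 counts in the 3 P1 hearts, and Has1 had 5, 237 and 55. Such spread between hearts of 1 age is far wider than counting error and left these genes with SEs of 0.75 to 2.63 from P1 to 4 weeks. Itih2 had 3, 38 and 1 counts at P1, 46, 0 and 57 at 4 weeks, 1, 14 and 11 at 14 weeks, 27, 46 and 12 at 1 year and 134, 66 and 65 at 1.5 years. The 1.5-year hearts were the highest of all, though their log2 difference from P1, 3.38 (SE 1.82, adjusted p = 0.167), did not pass. Itih4 was also highest at 1.5 years, at 1.25 to 6.09 CPM against 0.491 to 0.698 CPM at P1 (log2 fold change 2.49, SE 1.49, adjusted p = 0.214).

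**Figure D4:**
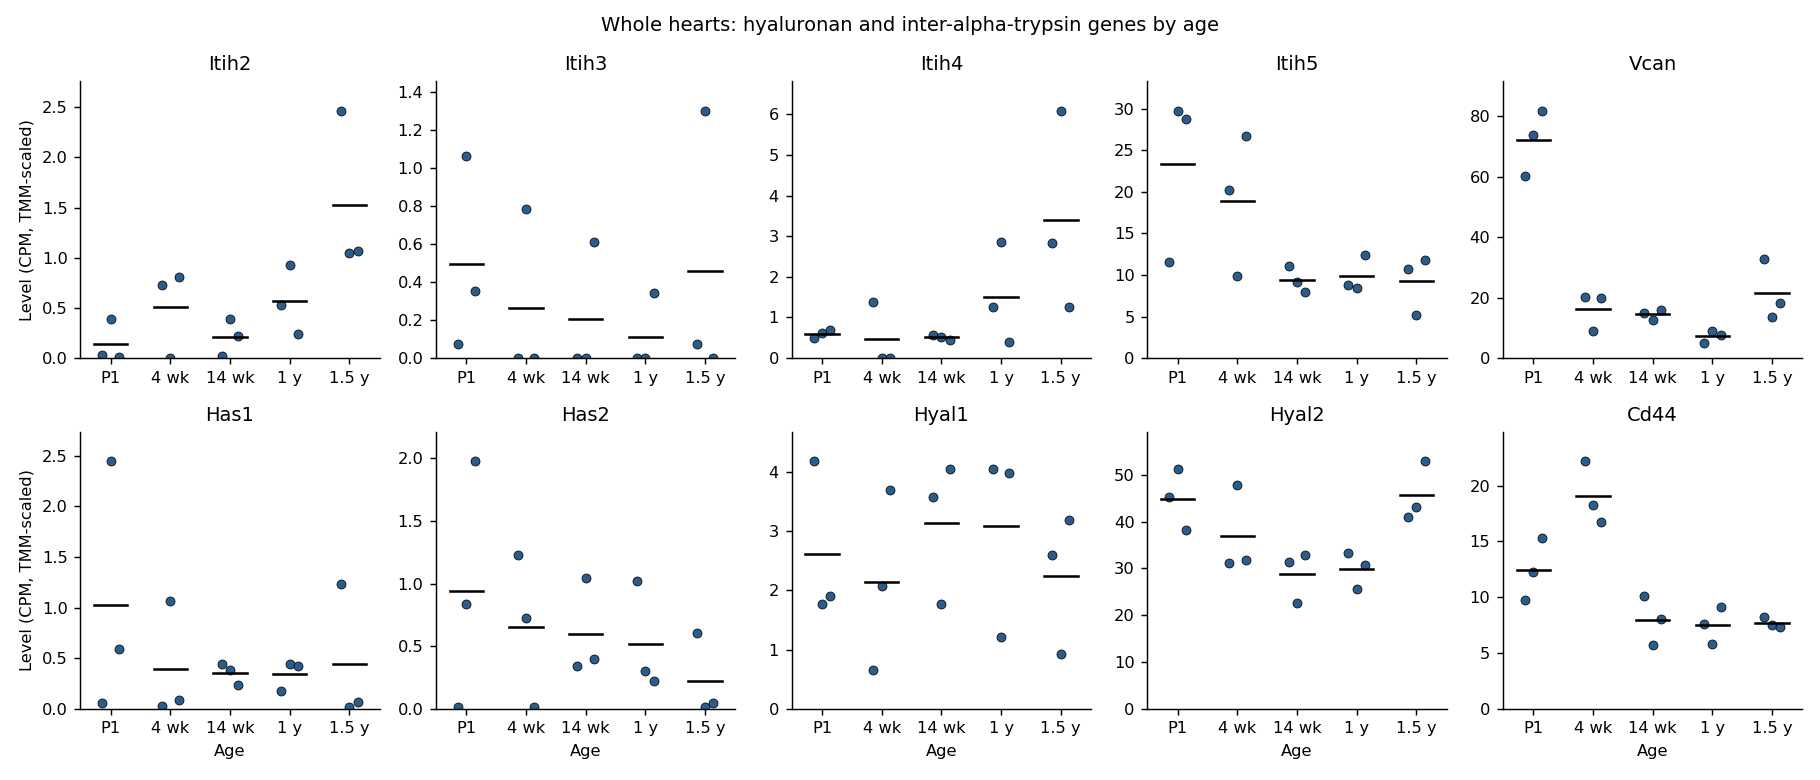
Levels of the 10 genes in whole hearts, in CPM against age, with 1 point per heart sample and a bar at the mean of 3. Vcan is at 60.3 CPM or more in the P1 hearts and at 32.8 CPM or less in all others, and 6 of the genes stay at 6.09 CPM or less.

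An interaction term fitted to the 27 samples asked whether the early change was the same in both tissues, and 7.14% of 20650 genes passed it. Of the 9 members other than Itih2, 2 passed. For Vcan the fibroblast change minus the heart change was 2.14 on the log2 scale (SE 0.41, adjusted p = 0.00184), with a fall in hearts and a fibroblast change of 0.00. The value passed with every sample left out in turn, at adjusted p of 0.00605 or less. For Has1 the changes were 3.41 in fibroblasts and -1.38 in hearts, the latter not passing by itself (SE 1.73, adjusted p = 0.658). The interaction difference was 4.76 (SE 1.41, adjusted p = 0.0416). It was lost on leaving out 17 of the 27 samples (adjusted p between 0.0501 and 0.244), namely all hearts of 14 weeks and 1 year, 4-week hearts 1 and 3, P1 heart 2, both fibroblast samples of 14 weeks and of 1 year, 4-week fibroblast replicate 3, P1 fibroblast replicates 1 and 2, and 1.5-year fibroblast replicate 4. Over each of the 27 samples left out in turn, the difference ran from 3.09 to 7.40. It was also lost in a fit of the P1 and 4-week samples alone (adjusted p = 0.121), an alternative chosen after the data were seen. From 14 weeks to 1.5 years 0 of 10 members passed the interaction by edgeR and by DESeq2, with 1 at an unadjusted p under 0.05, against 2.71% of all genes by edgeR and 6.81% by DESeq2. That gene was Vcan (-1.24, SE 0.46, adjusted p = 0.178), which was at -1.88 (adjusted p = 0.00627) with the length and GC offset.

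**Figure D5:**
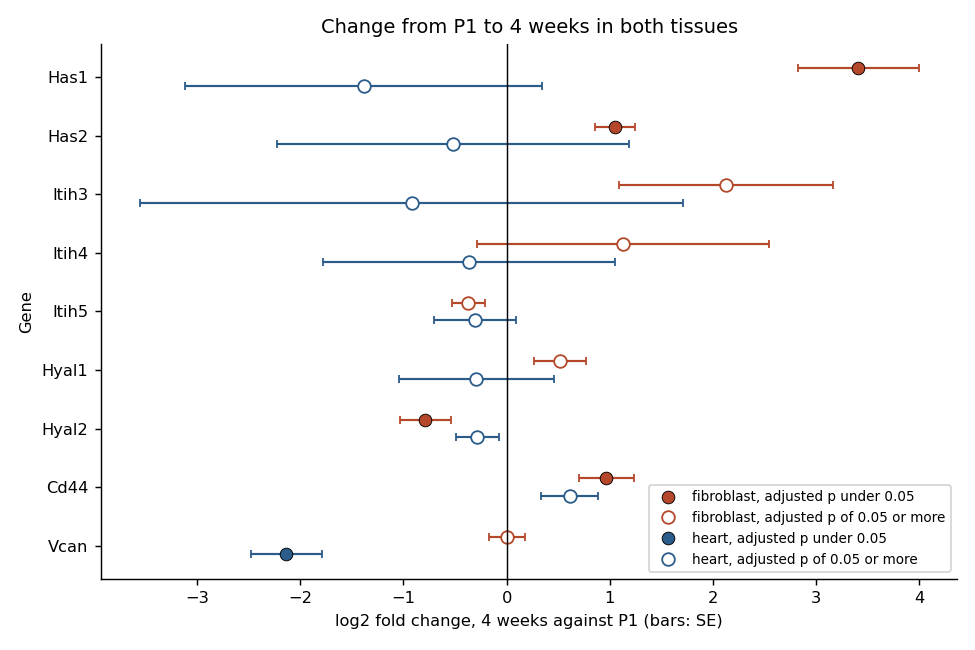
Log2 fold change from P1 to 4 weeks with its SE for the 9 members other than Itih2, in fibroblasts and hearts; filled points passed the test at an adjusted p under 0.05. The fibroblast and heart values are 3.41 and -1.38 for Has1 and 0.00 and -2.14 for Vcan, the 2 genes whose difference passed the test.

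Over the 5 ages, 8 of the 9 members other than Itih2 differed between sorted fibroblasts and hearts, as did 56.8% of all genes. Has1 (log2 difference 6.97, SE 0.54), Has2 (5.67, SE 0.53), Vcan (5.09, SE 0.16) and Itih5 (4.82, SE 0.18) were the most enriched in fibroblasts, all at adjusted p of 1.37e-09 or less, and their samples did not overlap with hearts at any age. Hyal1 (1.75, SE 0.27, adjusted p = 6.42e-06) and Cd44 (1.24, SE 0.13, adjusted p = 1.23e-08) were also higher in fibroblasts, as was Itih3 (2.67, SE 1.00, adjusted p = 0.0253), the last not without 1.5-year fibroblast replicate 4 (adjusted p = 0.0584). Hyal2 was the exception: its log2 difference was -1.13 (SE 0.11, adjusted p = 6.79e-09), and its samples lay below the hearts at all 5 ages. Itih4 did not pass (0.88, SE 0.72, adjusted p = 0.345). On the joint scale the mean of Cd44 in fibroblasts was 0.914 times that in hearts at P1 and 1.16 times at 4 weeks, with overlapping samples, and 3.68, 4.46 and 4.16 times at the 3 later ages, with no overlap. Itih2 is described only. At P1 its counts were 0, 0 and 1 in fibroblasts and 3, 38 and 1 in hearts, with overlapping samples, and from 4 weeks on its fibroblast mean was between 18.7 and 79.6 times the heart mean, with no overlap.

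Other genes of hyaluronan metabolism were followed through a list of 37 symbols, of which 28 had a row and 27 passed the filter in fibroblasts. From P1 to 4 weeks 8 of these 27 rose, where 9.28% of all genes did, and 2 fell, where 6.20% did. The median log2 fold change of the 27 was 0.16. The largest rises were of Tnfaip6, at 13.3 to 31.9 CPM at P1 and 125 to 265 CPM at 4 weeks (log2 fold change 2.87, SE 0.35, adjusted p = 0.000122), and of 2 genes that supply the UDP-sugar substrate. Uap1, which encodes the enzyme that forms UDP-N-acetylglucosamine, rose by 2.25 on the log2 scale (SE 0.19, adjusted p = 4.66e-06), from 45.1 to 58.8 CPM at P1 to 198 to 296 CPM at 4 weeks. Gfpt2, for a first enzyme of the same pathway, rose by 2.14 (SE 0.20, adjusted p = 1.01e-05), from 167 to 190 CPM to 614 to 1056 CPM. Ugdh, for the enzyme that makes UDP-glucuronic acid, rose as well (1.65, SE 0.29, adjusted p = 0.00161) and is named after its value was seen.

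The 2 that fell were Tmem2, which encodes a cell surface hyaluronidase, and Hapln1, for the link protein that ties versican to hyaluronan. Tmem2 was at 58.5 to 69.9 CPM at P1 and 7.90 to 19.0 CPM at 4 weeks (log2 fold change -2.40, SE 0.38, adjusted p = 0.000872). Hapln1 was at 10.1 to 14.7 CPM at P1 and at 0, 25 and 40 counts at 4 weeks (log2 fold change -5.33, SE 1.66, adjusted p = 0.0469). Its call was lost on leaving out any sample of the 12 other than the 1.5-year ones, with adjusted p between 0.0522 and 0.117.

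Between 14 weeks and 1.5 years 3 of the 27 passed in fibroblasts and all 3 rose, where 1.91% of all genes rose and 0.816% fell. They were Ptx3, which encodes a pentraxin that binds TSG-6 and heavy chains (log2 fold change 2.54, SE 0.56, adjusted p = 0.0326), Tnfaip6 (1.78, SE 0.42, adjusted p = 0.0421) and Gfpt2 (1.27, SE 0.23, adjusted p = 0.0132). Like Has1, they were higher in 4-week replicate 3 than in the other 4-week samples, at 175, 265 and 1056 CPM. All 3 calls were lost without either 14-week sample or 1.5-year replicate 4. That of Tnfaip6 was also lost without 1.5-year replicate 5, either 1-year sample or P1 replicate 2. The adjusted p was then between 0.0505 and 0.358. With library size as the only scaling Tnfaip6 no longer passed (adjusted p = 0.0538).

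In hearts 24 of the list were tested. From P1 to 4 weeks 3 rose, where 12.1% of all genes did, and 4 fell, where 6.10% did. Gfpt2 (log2 fold change 1.26, SE 0.28, adjusted p = 0.00368), Stab1 (1.21, SE 0.18, adjusted p = 0.000161) and Uap1 (0.76, SE 0.17, adjusted p = 0.00488) rose. Stab1 encodes a scavenger receptor of macrophages and sinusoidal endothelium. With library size as the only scaling, Gfpt2 (adjusted p = 0.0587) and Uap1 (adjusted p = 0.347) no longer passed. Tmem2 fell (-1.52, SE 0.29, adjusted p = 0.00138), as did Hmmr (-3.74, SE 0.79, adjusted p = 0.00281), which encodes a hyaluronan-binding protein of the mitotic spindle. Between 14 weeks and 1.5 years 1 of the 24 passed in hearts, where 4.91% of all genes rose and 7.86% fell. It was Hmmr, which fell from 19 counts or fewer to 1 count or fewer and was lost without 14-week replicate 2 or 1.5-year replicates 2 or 3 (adjusted p between 0.0523 and 0.0620). The interaction from P1 to 4 weeks passed for 3 of 28, where 7.14% of all genes did: Uap1 (1.49, SE 0.25, adjusted p = 0.000403), Ugdh (1.79, SE 0.36, adjusted p = 0.00258) and Ptx3 (3.18, SE 0.93, adjusted p = 0.0389). The value of Ptx3 was lost without any P1 sample of either tissue, 4-week fibroblast replicate 3, 4-week hearts 1 or 2, 14-week heart 2 or 1-year heart 1, with adjusted p between 0.0501 and 0.125.

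The 5 genes whose log2 CPM over the 12 fibroblast samples was most like that of Itih2, among 9957 genes with a mean of at least 10 CPM at some age, were Timp2 (Pearson r 0.993), Myoc (0.989), Gsn (0.988), H2-K1 (0.988) and Nfkb1 (0.987). The samples share the step from P1 to the later ages, so these values describe a common course. Gsn, which encodes the actin-severing protein gelsolin, had means of 2735 CPM at P1 and 50225 CPM at 1.5 years, and Myoc, for the secreted protein myocilin, of 1.04 and 561 CPM. The size of a rise does not enter r, and most of the 5 were well counted at P1. At the same ages the means were 673 and 2715 CPM for Timp2, 24.1 and 852 CPM for H2-K1, and 84.9 and 173 CPM for Nfkb1.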

How the data were processed

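Single-end polyA RNA-Seq reads had been aligned with STAR 2.5.3a to mm10, per the labels, and counted by gene. The deposited values are raw counts, and the annotation and strand column used for counting are not given in the sources used here. Counts were analysed as deposited with edgeR 4.0.16 in R 4.3.3: filterByExpr, TMM scaling, and the quasi-likelihood F test with Benjamini-Hochberg adjustment, with all 5 ages of a tissue in 1 fit and all 27 samples in 1 fit for tissue and interaction. Counting error at 46.1 to 76.8 M counts per sample is small beside the spread between samples. Per the study's methods, the samples of an age within a tissue came from different hearts. The study also states that fibroblasts and their hearts of origin were both sequenced, so fibroblast and heart samples can share animals. The labels do not tie a sample to an animal, and the fit of all 27 samples treated them as independent. The members and lists were chosen with earlier results of these data known. Named genes were the 10 members, and of the other listed genes at most 3 called rises and 3 falls per comparison with a mean of at least 10 CPM, plus the 5 genes most like Itih2 (log2 of CPM + 1). Alternatives were DESeq2 1.42.0, RLE scaling, library size alone, a length and GC offset, 2 other filters, only the ages compared, a replicate block, leaving out each sample and, chosen after the data were seen, a fit of the P1 and 4-week samples alone with and without a block across tissues. The scripts were tested on simulated data. Exon lengths are from GENCODE M21, which held 95.4% of the symbols.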

Additional observations from a re-analysis of the deposited data

Results flagged for a closer look

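The change from P1 to 4 weeks differed between fibroblasts and hearts, by the interaction test of edgeR over 27 samples, for 2 members and 3 other hyaluronan genes. The differences, fibroblast minus heart on the log2 scale, were 4.76 for Has1, 2.14 for Vcan, 3.18 for Ptx3, 1.49 for Uap1 and 1.79 for Ugdh. Those of Vcan, Uap1 and Ugdh passed with each sample left out in turn, whereas those of Has1 and Ptx3 were lost on leaving out 17 and 11 of the 27 samples. Fibroblasts were digested and sorted and hearts were not, so a difference between tissues and 1 between preparations cannot be told apart. Single outlying samples were not tested in these groups of 2 or 3.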

How the results depend on the processing

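No result changed direction among those called. Numbers of members called moved as follows. With DESeq2, the fibroblast counts were 8 among the 5 ages, 2 from 4 to 14 weeks, 1 from 14 weeks to 1 year, 2 from 14 weeks to 1.5 years and 7 from P1 to 1.5 years, where DESeq2 called 29.2%, 8.17%, 5.38%, 6.80% and 22.6% of all genes. With library size as the only scaling, 2 passed in fibroblasts from 14 weeks to 1.5 years, where 3.09% of all genes did. That scaling gave 2 in hearts from P1 to 4 weeks, where 26.5% of all genes passed. With the length and GC offset, 1 passed in fibroblasts from 4 to 14 weeks, where 2.20% of all genes did. That offset gave 1 in hearts from 14 weeks to 1 year (1.63% of all genes) and 1 from P1 to 1.5 years (28.1%). It gave 1 in the later interaction, where 1.32% of all genes passed. With at least 10 counts in every sample, fewer genes were tested, 11219 in fibroblasts and 10127 in the fit of both tissues. In fibroblasts 1 member then passed between 4 and 14 weeks, where 8.98% of all genes did. The next step, to 1 year, also had 1, against 5.07% of all genes. The early interaction had 1 (15.4% of all genes) and the tissue comparison 5 (81.7%). Itih3, Has1 and Has2, which passed between tissues above, each had 1 count or fewer in some heart. This filter thus left them out of that comparison, and Has1 out of the interaction. With no filter, 1 passed in fibroblasts from 14 weeks to 1 year, where 1.61% of all genes did. With only the 2 ages compared, and so fewer samples, 2 passed in fibroblasts from P1 to 4 weeks, where 14.8% of all genes did. From 14 weeks to 1 year 2 passed there, where 12.2% of all genes did, against 1.78% with all ages in 1 fit. In hearts this setting gave 0 from 4 to 14 weeks (1.50% of all genes) and 0 from 14 weeks to 1.5 years (11.3%). It gave 1 in hearts from P1 to 1.5 years (29.0%). From 14 weeks to 1 year 1 passed in hearts, where 9.30% of all genes did, against 0.972% with all ages in 1 fit. The early fibroblast calls of Cd44 and Hyal2 and the heart calls of Cd44, Hyal2 and of Itih5 from P1 to 1.5 years were among those lost, at adjusted p of 0.0981, 0.0821, 0.0531, 0.0571 and 0.0605. Where no construction of the alternative shows it, the cause was not tested.

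Leaving out each sample in turn gave, in fibroblasts, 4 to 5 members called among the ages, 2 to 4 from P1 to 4 weeks, 0 from 4 to 14 weeks, 0 to 1 at each later step from 14 weeks and 3 to 6 from P1 to 1.5 years. In hearts it gave 2 to 5 among the ages, 1 to 2 from P1 to 4 weeks, 0 to 1 from 4 to 14 weeks, 0 from 14 weeks to 1 year, 0 to 1 from 14 weeks to 1.5 years and 1 to 2 from P1 to 1.5 years. The early interaction held 1 to 2, the later 0, and the tissue comparison 7 to 9. Where this left 1 sample at an age, that sample was assumed to vary like the others. Of 756 such values of called results for single genes, 647 still passed, and of 328 under the other settings, 296 did.

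Whether replicate numbers pair the samples could not be settled by correlating deviations from the mean of each age. Same-numbered samples gave -0.122 to 0.255 between ages in fibroblasts, where other pairs gave -0.427 to 0.427. In hearts the values were -0.313 to 0.465, and -0.517 to 0.326 for other pairs. The 6 pairs of fibroblasts and hearts of 1 age that share a number, all at P1 and 4 weeks, gave -0.0499 to 0.0747. Other such pairs gave -0.0922 to 0.117. With 2 samples at an age the deviations mirror each other, so 1 value fixes the other. With a replicate block within each tissue, 2 members passed in fibroblasts from P1 to 4 weeks, where 11.2% of all genes did. In hearts 0 passed with the block from 14 weeks to 1.5 years, where 11.3% of all genes did. That block left 20 of 18759 genes called in fibroblasts from 14 weeks to 1.5 years, against 511 without it, and Ptx3, Gfpt2 and Tnfaip6 were then at adjusted p of 0.238, 0.119 and 0.0971. Ptx3 in the early interaction was at 0.0600. In a fit of the P1 and 4-week samples alone, chosen after the data were seen, 1 member passed the early interaction, Vcan, both without a block and with same-numbered fibroblasts and hearts as a replicate block across tissues, where 5.37% and 2.95% of 17651 genes did. No paired analysis was possible because too few numbers were shared for the other fibroblast comparisons with P1 or 4 weeks, and because fibroblasts and hearts shared none from 14 weeks on, which the tissue comparison over 5 ages needs.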
